A study of Mus musculus with 12 samples.

Results

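Cells with transcript of complement C1q were examined among c-Kit+ bone marrow cells of WT mice and of mice with oncogenic NRas, Ezh2 loss or both. Cells were selected on their measured C1q counts alone: a cell was kept when at least 2 of the 3 genes C1qa, C1qb and C1qc each had 2 or more UMIs (unique molecular identifiers, 1 per captured RNA molecule). These cells are called C1q-gated, and their C1q levels are given as a description. The rule kept 55 of 32701 cells. Droplet-based 10x Genomics sequencing of 3′ transcript ends gave a single library for each genotype at each time after pIpC, the interferon inducer that turns Mx1-Cre on. The time points were T1 at 2 weeks, T2 at 2 months and T3 at 4 months. All mice were C57BL/6, received 5 pIpC injections (at 8 to 12 weeks of age by the labels, while the study's text gives a younger age), and had their HSPCs, the stem and progenitor cells of the blood, enriched magnetically by c-Kit. E2-KO mice carried Mx1-Cre with Ezh2 f/f, G12D mice carried Mx1-Cre with NRas G12D+/-, and G12D/E2-KO mice carried all of these. WT mice lacked Mx1-Cre, so the recombinase differs between WT and every mutant and cannot be told apart from the mutations in a comparison with WT. Mx1-Cre acts in hematopoietic and other interferon-responsive cells, macrophages included.

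C1q is the recognition unit of the classical complement pathway. Its A, B and C chains are made together, mainly by tissue macrophages, and C1q transcript is a standard mark of such cells. Marrow macrophages sit at the centre of erythroblastic islands, where they hold erythroblasts through VCAM1, take up the expelled nuclei and recycle iron through heme oxygenase (Hmox1) and the exporter ferroportin (Slc40a1). Others clear aged neutrophils and dying cells. Macrophages depend on the receptor CSF1R and are recognised by F4/80 (Adgre1), CD68, MERTK and the sialic acid receptor CD169 (Siglec1), and they are not expected to be rich in c-Kit.

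The 3 genes lie next to each other on chromosome 4 of the mouse (GRCm38/mm10, GENCODE), on the minus strand: C1qb at chr4:136880129-136886187, C1qc at chr4:136889804-136893065 and C1qa at chr4:136895917-136898803. Since these genes define the cells, stretches upstream of C1qb (chr4:136886201-136886450) and C1qc (chr4:136893066-136893164) are shown from RefSeq (GRCm38.p6), where 2 of the 3 genes had a matching entry. Capitals mark GAGGAA or, on the other strand, TTCCTC, which is the core of the motif of PU.1 (Spi1), a factor of myeloid cells.
C1qb: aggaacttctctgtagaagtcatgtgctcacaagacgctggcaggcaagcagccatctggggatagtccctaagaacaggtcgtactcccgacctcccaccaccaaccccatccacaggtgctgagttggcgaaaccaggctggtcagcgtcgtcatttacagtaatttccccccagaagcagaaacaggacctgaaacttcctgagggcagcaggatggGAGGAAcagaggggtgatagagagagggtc
C1qc: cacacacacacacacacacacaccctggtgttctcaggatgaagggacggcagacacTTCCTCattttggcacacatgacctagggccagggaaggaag
The matches begin 30 bases before the RefSeq start of C1qb and 193 bases before that of C1qc. Of 32851 promoter entries, 23.3% held the motif on either strand in the 250 bases before the start. The match is a description of these letters and not of binding.

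The 12 libraries held 2350 to 3767 cells each and 12.6 to 23.6 M UMIs. The table labelled G12D T1 shared 2896 of its 5648 cells with G12D/E2-KO T1, and these were dropped from G12D T1 before any step. They included 4 of the 6 C1q-gated cells of that table as deposited. The targeted gene followed the labels: Ezh2 stood at 103 to 133 CPM (UMIs per M UMIs) in the WT libraries, 27.7 to 34.6 in E2-KO, 81.7 to 103 in G12D and 20.7 to 25.3 in G12D/E2-KO. Since a genotype had a single library at each time, the time points served as replicates, and p-values over libraries measure the spread between these libraries only.

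C1q-gated cells were mostly WT cells. WT T1 held 26 of them, WT T2 11 and WT T3 4, which are 41 of 7583 WT cells. E2-KO held 3 of 7975 cells, G12D 7 of 7715 and G12D/E2-KO 4 of 9428, so that the 9 mutant libraries held 14 gated cells among 25118. As shares of a library, gated cells made up 1.11% of WT T1 (95% exact binomial interval 0.724 to 1.62), 0.387% of WT T2 (0.193 to 0.691) and 0.167% of WT T3 (0.0456 to 0.428). The WT libraries thus differed among themselves by more than their counting error, and WT T1 was the highest. The E2-KO shares were 0.0409%, 0.0679% and 0 at T1, T2 and T3, and 0 of 2586 cells allows a share of up to 0.116% by the limit of 3 counts of the total (exact binomial upper end 0.143%). The G12D shares were 0.0727%, 0.0415% and 0.157%. In G12D/E2-KO they were 0.131% at T1 and 0 at both later times, which by the same limit allows up to 0.0796% at T2 and 0.115% at T3 (exact upper ends 0.0979% and 0.141%). The 3 libraries with 0 gated cells also had the lowest median depths. These were 3780.5 UMIs per cell in E2-KO T3, 4186 in G12D/E2-KO T2 and 5133 in G12D/E2-KO T3. The next lowest was 5458 in G12D T3. The gate asks for UMI counts, so shallower cells pass it less easily, and how far depth accounts for these zeros was not tested. Intervals and limits cover counting error only.

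**Figure D1:**
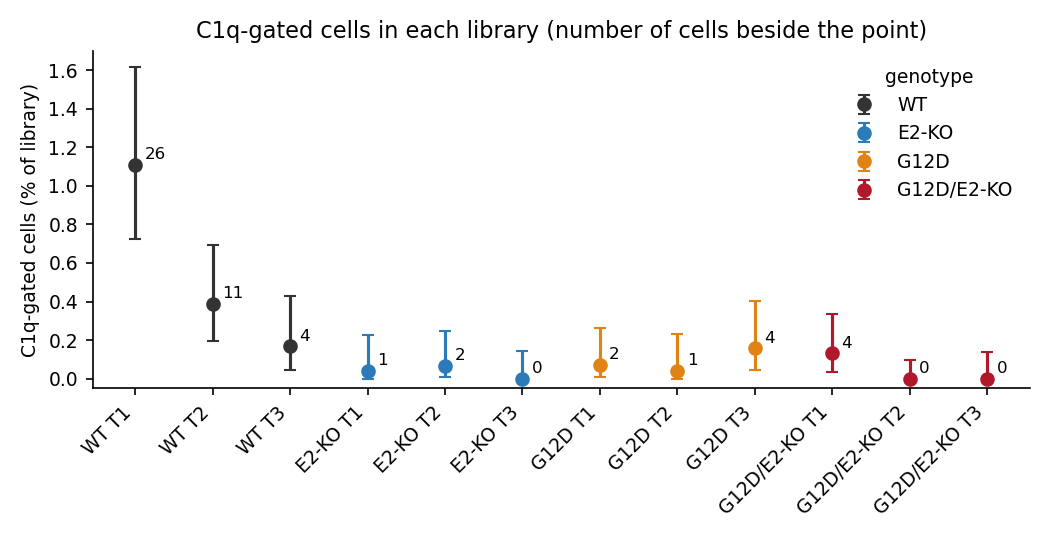
C1q-gated cells as a percentage of all cells of each library (y axis), with 95% exact binomial intervals as bars and the number of gated cells beside each point. The 3 WT libraries sit between 0.167% and 1.11%, and every mutant point sits below the lowest WT point at this gate.

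The mean share was 0.554% ± 0.491 (SD, n = 3) in WT. It was 0.0363% ± 0.0342 in E2-KO, 0.0903% ± 0.0597 for G12D libraries and 0.0438% ± 0.0759 for those of G12D/E2-KO. No mutant library reached the lowest WT library at this gate. With 3 or more UMIs asked of each of at least 2 genes, WT T3 held 0 cells while G12D T1 held 1 and G12D T3 held 2. For each mutant against WT the exact two-sided permutation test gave p = 0.1, the smallest that 3 against 3 libraries allow. Paired by time point over both backgrounds, the share was lower with E2 loss in 5 of 6 pairs, with a mean difference of -0.282 percentage points (SD 0.404; exact sign-flip test p = 0.0938, adjusted over 3 tests 0.281). With G12D it was lower in 4 of 6 pairs and higher in 1, with a mean of -0.228 points (SD 0.422; exact p = 0.312, adjusted 0.312). The interaction had a mean of 0.471 points over the 3 times (exact sign-flip test p = 0.25, the smallest possible). Its sign is no result. At each time the WT share exceeded the single-mutant shares added together, so any double-mutant share gives a value above 0. None of these 3 tests passed its threshold. The means rested largely on WT T1: without it, the E2 difference was -0.125 points and the G12D difference -0.0667 points.

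The gate is a threshold on few molecules. Gated cells held 4 to 24 C1q UMIs with a median of 6, among 2419 to 24701 UMIs in all (median 5866). 14 cells passed with exactly 2 UMIs in each of 2 genes, and 13 had 2 or more in all 3. Just outside were 94 cells with 2 or more UMIs of 1 gene and a single UMI of another. Of those just inside 71.4% had an Apoe UMI and 35.7% a Vcam1 UMI, and of those just outside 62.8% and 42.6%. In all, 1419 cells had a C1q UMI, and the gated cells held 18.4% of the 2269 C1q UMIs of the series. When every cell was thinned to 3000 UMIs, leaving out 152 to 990 shallower cells per library, 0.483% of WT T1, 0.113% of WT T2 and 0% of WT T3 passed. Among the mutants, 1 of 2604 cells of E2-KO T2, 1 of 2498 of G12D T1 and 1 of 2137 of G12D T3 passed and none in the other 6, so that WT T3 was then no longer above every mutant library.

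The gated cells are called by their gate and not macrophages, and whether they are of 1 kind was not tested. Most of them carried abundant transcripts of other marrow cells. In 22 of the 55, the 7 late granulocyte genes Camp, Ngp, Lcn2, Retnlg, S100a8, S100a9 and Ltf made up 16.8% to 52.7% of all UMIs. In 16, hemoglobin transcripts of 4 globin genes made up 19.3% to 87.6%. Of the rest, 2 fell in the early granulocyte range, 1 in the B lymphoid range, 1 was promonocyte-like (a UMI of F13a1 and of Ms4a6c), and 13 fell in none of these ranges. Thus 38 of 55 cells (69.1%) were globin-high or in the late granulocyte range, both cut at 10% of UMIs. Over all cells, 7.97% were globin-high and 30.4% fell in the late granulocyte range, and in the WT libraries, which held most gated cells, 7.48% and 35.9% did. For each cut, 1 gated cell lay between 8% and 12%. The authors had removed doublets before deposit, and the part of remaining doublets, of material attached to a cell and of free RNA in the gated cells was not tested.

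**Figure D2:**
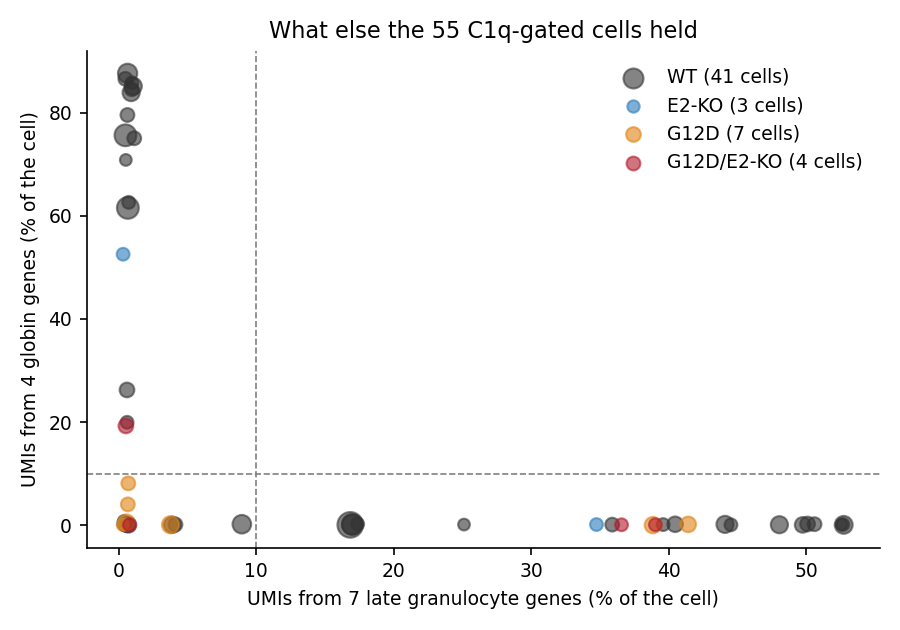
Each point is 1 of the 55 C1q-gated cells, placed by the percentage of its UMIs from 7 late granulocyte genes (x axis) and from 4 globin genes (y axis), coloured by genotype and sized by its number of C1q UMIs. Dashed lines mark the 10% cuts. The cells lie along both axes, with 16 above the globin cut and 22 beyond the granulocyte cut.

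Defining macrophage receptors were sparse. Csf1r UMIs were found in 6 of 55 gated cells (10.9%), against 39.4% of promonocyte-like cells in the 9 libraries with gated cells. These promonocyte-like cells had a median depth of 9131 to 13064 UMIs per library. Matched cells were, per gated cell, the 10 other cells of the same library and range nearest in UMIs. Cells with a UMI of each of at least 2 C1q genes could not be chosen, which can widen differences from gated cells. Where cells were few the depth match was looser: 7 globin-high gated cells of WT T1 held 54741 UMIs, their 70 matched cells 361860. In matched cells the Csf1r share was 2.36%. Adgre1 was found in 4 gated cells, Fcgr1 in 3, Mertk in 1, Siglec1 in 1, Cd163 in 4 and Cd68 in 14. Sparse does not mean fewer than in other cells. Cd68 stood at 43.3 CPM in gated and 7.27 in matched cells (log2 change 2.49, adjusted p = 0.172, edgeR over 5 libraries). Against promonocyte-like cells, Cd68 was at 56.8 against 19.2 CPM in WT T1 and at 21.9 against 23.0 in WT T2. Neither Csf1r nor Adgre1 was detected in 46 of the 55 cells. Counted over 13 macrophage markers other than C1q, the median gated cell had UMIs of 2, 7 cells had none, and 25 had 3 or more. Other markers were frequent: Apoe in 44 cells (80% against 16% of matched cells), Vcam1 in 32 (58.2% against 10.2%), Hmox1 in 30 (54.5% against 7.45%), Slc40a1 in 26 (47.3% against 23.8%) and Mrc1, the mannose receptor, in 21 (38.2% against 1.64%).

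Set against matched cells, the gated cells held more of a set of transcripts beyond C1q than cells of the same library and range. UMI counts were summed per library for the gated and the matched cells of the 5 libraries with 3 or more gated cells (WT T1 to T3, G12D T3 and G12D/E2-KO T1), and tested with edgeR's quasi-likelihood test with the library as a block. In such sums, fewer cells of a kind and less RNA per cell cannot be told apart. Of 2721 genes tested beside those of the gate, 29 were higher in gated cells (1.07%) and 9 lower (0.331%) at an adjusted p under 0.05. The median log2 change over all genes was -0.12. Genes near 0 in matched cells passed the filter on low counts through the gated cells, where they are high, and many members of each list below were filtered out. The genes named from a list are therefore single results and say nothing about the list as a whole.

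Among genes of erythroblastic islands and iron recycling, Vcam1, the adhesion molecule of island macrophages, stood at 473, 219 and 234 CPM in gated cells of WT T1, T2 and T3, at 143 in G12D T3 and at 124 in G12D/E2-KO T1. In matched cells Vcam1 stood at 17.8, 27.0, 60.8, 17.9 and 4.11 CPM in the same order. The ranges did not overlap, and the log2 change was 3.52 (SE 0.36, adjusted p = 4.5e-20, edgeR). Hmox1, which degrades heme, was at 208, 98.7, 374, 0 and 124 CPM in gated cells against 14.3, 19.1, 28.0, 0 and 4.11 in matched cells. It was higher in 4 of 5 libraries and listed at 0 in both classes of G12D T3 (log2 change 3.35, SE 0.45, adjusted p = 3.4e-11). Of 18 island and iron genes, 11 passed the filter. The iron carrier transferrin (Trf, log2 3.27) and ferritin light chain (Ftl1, 0.66) rose too, as did ferroportin (Slc40a1, 1.39), which was higher in 4 of 5 libraries and lower in G12D/E2-KO T1 (41.2 CPM in gated against 98.6 in matched cells).

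Axl, a receptor for dying cells, was higher. It comes from the list for uptake of dying cells, of which only 2 genes passed the filter. It was at 69.4, 98.7, 140, 35.8 and 124 CPM in the gated cells of the 5 libraries and at 0 to 5.63 in matched cells, with no overlap (log2 change 4.42, SE 0.73, adjusted p = 3.3e-07). Fcna, the lectin ficolin A of the complement system, was at 94.7, 87.7, 234, 35.8 and 124 CPM against 0 to 14.0 in matched cells (log2 change 4.52, SE 0.67, adjusted p = 5.0e-09). Mrc1 was at 35.8 to 140 CPM against 0 to 7.88 (log2 change 4.02, SE 0.79, adjusted p = 5.0e-05). A single UMI equals 46.7, 35.8 and 41.2 CPM in the gated cells of WT T3, G12D T3 and G12D/E2-KO T1, so the lowest of these values are 1 molecule. Of 17 genes of the macrophage core list, 6 passed the filter. Beside Mrc1, the protease legumain (Lgmn, 2.70) and Aif1 (3.11) rose. Properdin (Cfp, 1.75), which stabilises the alternative complement convertase, rose from the list of complement and Fc receptors.

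Lysosomal and lipid genes were among the remainder. Apoe, the lipid carrier, was at 871, 460, 607, 322 and 330 CPM in gated cells and at 101, 47.3, 18.7, 32.2 and 16.4 in matched cells (log2 change 3.42, SE 0.30, adjusted p = 1.2e-27). Of 22 lysosomal genes 14 passed the filter, and prosaposin (Psap, 1.86) and the cathepsins Ctsd (1.69), Ctsb (1.59), Ctss (2.75) and Ctsc (2.78) rose beside Lgmn. Psap ranged from 280 to 430 CPM in gated cells and from 74.3 to 144 in matched cells. Cd5l (4.05), a protein secreted by tissue macrophages, and the fatty acid carrier Fabp4 (4.60) rose from low levels in matched cells (2.64 and 4.95 CPM). In G12D/E2-KO T1 both were at 0 in gated cells, against 4.11 and 12.3 CPM in matched cells, and Fabp4 was at 0 in both classes of G12D T3. Fabp4 rested on few cells, since 1 WT cell held 45 of its 56 UMIs. The same holds for the chemokine Ccl5, where 1 cell held 17 of 22 UMIs, but not for Vcam1 (15 of 109), Axl (3 of 28), Fcna (3 of 34) or Apoe (28 of 240). The growth factor Igf1 (3.34), found in 18 gated cells, the G protein subunit Gngt2 (3.03), the kinase C substrate Marcks (2.47), AW112010 (2.54) and the selenium carrier Sepp1 (2.39) also rose. Sepp1 was higher in the 3 WT libraries but stood at 35.8 against 39.4 CPM in G12D T3 and at 41.2 against 41.1 in G12D/E2-KO T1. Cfp, Ctss and Igf1 were at 0 in gated cells of G12D/E2-KO T1, against 24.7, 8.22 and 4.11 CPM in matched cells. Trf and Aif1 were at 0 in those of G12D T3, against 7.16 CPM each, and Ctsc in those of WT T3, against 4.67.

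**Figure D3:**
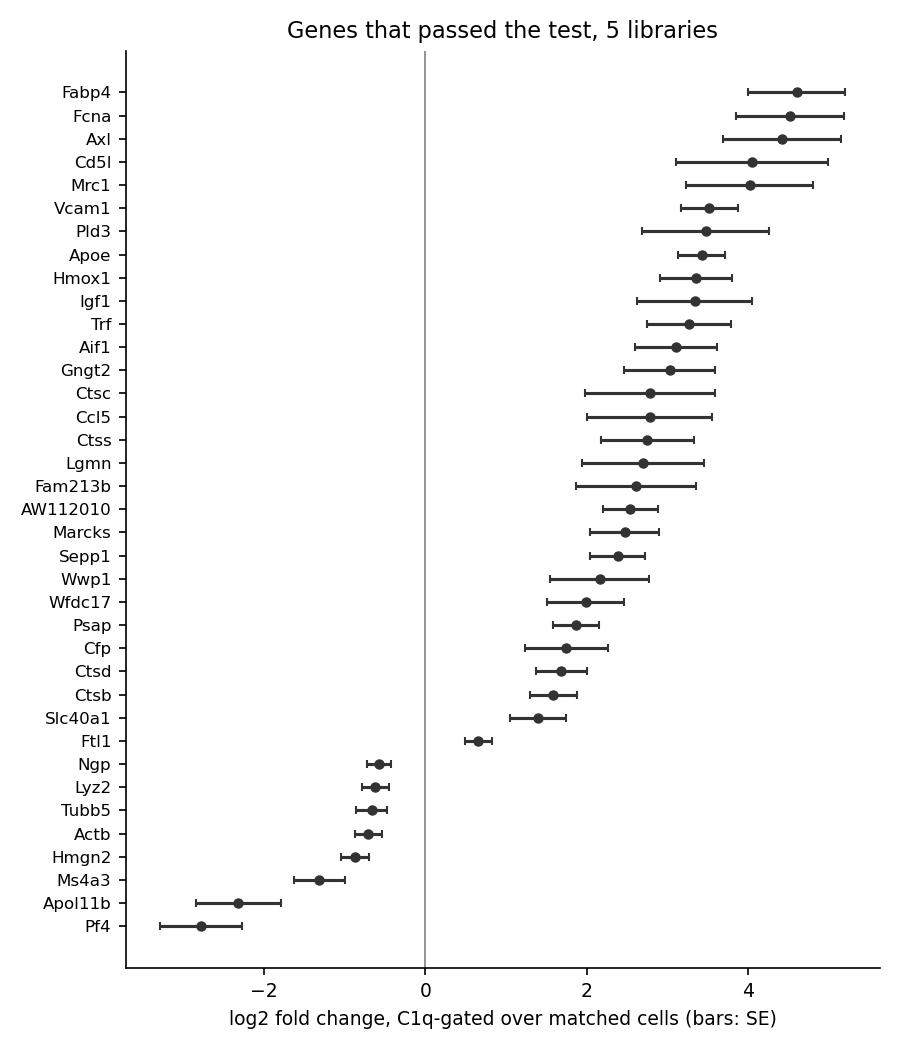
Log2 fold change of C1q-gated over matched cells (x axis) for the genes past an adjusted p of 0.05 in edgeR over 5 libraries, leaving out the gate's genes and a sex-linked gene, with standard errors as bars. The higher genes run from Ftl1 at 0.66 to Fabp4 at 4.60, and Pf4 at -2.78 lies lowest.

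Few genes were lower in gated cells. Pf4, the platelet chemokine, was at 50.5 CPM in WT T1 and at 0 in the other 4 libraries, against 12.3 to 276 in matched cells (log2 change -2.78, SE 0.51, adjusted p = 8.2e-06), and the call was lost in DESeq2 (adjusted p = 0.0856) and with no replicate block. By range, Pf4 was at 57.3 CPM in gated cells outside all ranges against 1048 in their matched cells, but at 47.4 against 11.8 in the late granulocyte range, where it was higher in gated cells. Apol11b fell by 2.32 on the log2 scale (SE 0.53), Ms4a3, a membrane protein of granulocyte-monocyte progenitors, by 1.31 (SE 0.32), and the nucleosome protein Hmgn2 by 0.88 (SE 0.18). The beta tubulin Tubb5 and the granule protein Ngp fell by 0.66 and 0.58. Lyz2 and Actb and a sex-linked gene completed the lower group. Lyz2 was lower in 4 of 5 libraries and higher in WT T2 (2379 CPM in gated against 1964 in matched cells). Actb was higher only in G12D T3 (5768 against 3686). By range, Lyz2 was at 9805 against 12069 CPM in the late granulocyte range, but at 653 against 241 outside all ranges. The call of the sex-linked gene rested on WT T3 (234 CPM in gated against 659 in matched cells) and G12D T3 (1111 against 1992). In the remaining libraries it was at 4.11 CPM or less in both classes. None of 15 erythroid genes and none of 6 macrophage transcription factors tested passed in either direction in edgeR or in DESeq2 (1 and 0 at an unadjusted p under 0.05 in edgeR). The late granulocyte list gave 0 higher and 2 lower of 15. Matched cells came from the same range, and ranges are cut on globin and late granulocyte genes. The results for the erythroid and late granulocyte lists are therefore largely set by the matching. None of 8 interferon, 4 Polycomb and 3 RAS output genes passed in either tool (0, 1 and 0 at an unadjusted p under 0.05). For MHC class II, summed levels were 2067 CPM in gated and 330 CPM in matched cells, but none of 6 genes passed in edgeR (2 at an unadjusted p under 0.05, 1 passed in DESeq2), and 1 WT T2 cell held 177 of the 321 Cd74 UMIs.

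These transcripts were found in gated cells of the late granulocyte range and in globin-high gated cells. Summed over libraries, Vcam1 was at 545 CPM (exact Poisson 95% interval 424 to 689) in gated cells of the late granulocyte range against 36.2 (26.5 to 48.3) in matched cells. In globin-high gated cells Vcam1 was at 213 CPM (138 to 315) against 18.7 (11.1 to 29.5). Fcna was at 86.8 and 111 CPM in these 2 ranges, against 3.15 and 7.26 in matched cells. Apoe was at 1113 and 401 CPM against 16.5 and 25.9. In the 13 gated cells outside all ranges Vcam1 was at 57.3 CPM (18.6 to 134) against 9.17, Fcna at 91.6 against 0, Axl at 80.2 against 5.73 and Apoe at 435 against 171. Cd74 was there at 2657 CPM, mostly from the single WT T2 cell. These intervals cover counting error only, and no test was made between ranges.

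The gated cells were also compared with promonocyte-like cells. Only WT T1 and WT T2 had 5 or more gated cells, so that the edgeR fit used their 147 and 205 promonocyte-like cells and had 1 residual degree of freedom. Of 6227 genes tested beside the 5 that chose the cells, 306 were higher in gated cells (4.91%) and 224 lower (3.6%), with a median of -0.12. DESeq2 called 198 higher and 18 lower, and edgeR with no filter on low counts 214 higher and 362 lower, so the balance of directions rests on these choices. Genes of other lineages were among the higher ones: 15 of 15 late granulocyte genes tested rose (such as S100a8, log2 4.30, and Camp, 4.19), as did 5 of 15 erythroid genes, among them Slc4a1 (5.35) and Klf1 (4.59). The embryonic globin Hbb-bh1 was at 260 CPM against 0.735, a ratio of 354 with a counting interval of 116 to 1763.

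This comparison shares its gated cells with that against matched cells, so both are not independent. Vcam1 was at 473 and 219 CPM in gated cells of WT T1 and T2 against 8.46 and 3.23 in promonocyte-like cells (log2 change 6.36, SE 0.40, adjusted p = 1.7e-13, edgeR). Fcna (6.16) and Axl (6.06) followed, then Sdc3 (5.86), a heparan sulfate proteoglycan, the stress gene Ppp1r15a (5.81) and Fabp4 (5.79). Igf1 was at 82.1 and 76.7 CPM against 1.54 and 0.359, and with 3 UMIs in promonocyte-like cells its ratio was 109 (32.3 to 573). Fam46c rose by 6.45 on the log2 scale. Cd74, the invariant chain of MHC class II, was at 316 and 2237 CPM against 16.9 and 36.7 (log2 change 5.81), of which 1 cell in WT T2 gave most. Likewise 51 of 53 gated UMIs of Cxcl12, the chemokine of marrow stroma, came from 1 WT cell. By list, and only among genes past the filter, with the same limit as above, 6 of 9 macrophage core genes rose, 10 of 13 island and iron genes (Ermap, Klf1 and Epor of these 10 are erythroid genes and did not pass against matched cells), 7 of 18 lysosomal genes and 2 of 6 genes for the uptake of dying cells (Axl and Cd36). The lysosomal Ctsz and Npc2 fell. Of the transcription factors, Maf (4.79) and Irf7 (4.47) rose while Zeb2 (-1.43), Cebpb (-1.16) and Irf8 (-1.56) fell. Many of the genes named in this comparison did not pass against matched cells. For Ppp1r15a, Fam46c, Cd36, Irf7 and Hbb-bh1 the log2 changes there were -0.40, 0.66, 0.10, 0.69 and 0.28 (adjusted p of 0.804 to 0.983, edgeR). Cd74 did not pass there either (2.29, adjusted p = 0.815, edgeR), nor did S100a8, Camp, Slc4a1, Klf1, Zeb2, Cebpb, Irf8, Ctsz and Npc2. Sdc3, Maf and Cxcl12 were filtered out there on low counts and so were not tested.

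Of 14 promonocyte genes tested 6 fell, 1 rose and 7 did not pass. Those that fell included Plac8 (-2.32), Ly6c2 (-1.98), Ctsg (-3.18) and Ly86 (-1.93). The gene that rose was Chil3, which late granulocytes also express. Of 8 early granulocyte genes tested 6 fell, the enzymes Prtn3 (-2.05) and Elane (-1.39) among them, while 2 rose, Fcnb (4.35) and Cebpe. Emb, an adhesion protein, was at 24.0 CPM in the gated cells of both libraries against 482 in promonocyte-like cells and was lower in each (log2 change -3.93, SE 0.41, adjusted p = 1.8e-08). Tifab and Milr1 had 1 gated UMI each, with ratios of 0.0288 (0.000729 to 0.161) and 0.0601 (0.00152 to 0.338). A further 7 genes had no UMI in the gated cells of these libraries, which allows up to 12.0 CPM (3 counts over both libraries). Against that limit Thyn1 was at least 7.52-fold lower and Mpp6 at least 5.46-fold lower. Cnot8 and Tmem229b were each at least 4.12-fold lower, and Cisd3, Utp18 and Prmt5 at least 3.85-, 3.24- and 3.14-fold lower.

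Transcripts that accompanied C1q in gated cells were also more frequent in ungated cells with fewer C1q UMIs. In WT cells with 0, 1, 2, 3 and 4 or more C1q UMIs (6940, 437, 97, 50 and 59 cells), a Vcam1 UMI was found in 8.60%, 14.9%, 24.7%, 44% and 62.7%. Axl was found in 0.865%, 5.72%, 19.6%, 30% and 35.6%, and Hmox1 in 4.02%, 14.2%, 28.9%, 44% and 61.0%. Csf1r stayed between 3.96% and 10%, and its highest share was not in the highest class. In the 9 mutant libraries, Vcam1 ran from 7.95% to 40.7% and Axl from 0.813% to 22.2%, with 27 cells in the highest class. There Hmox1 stood at 22.8%, 21.6% and 22.2% with 2, 3 and 4 or more C1q UMIs, and Csf1r was at 2.70% to 5.76% in the lower classes and at 18.5% in the highest. The cells of a class share libraries and differ in depth, so these shares are a description.

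**Figure D4:**
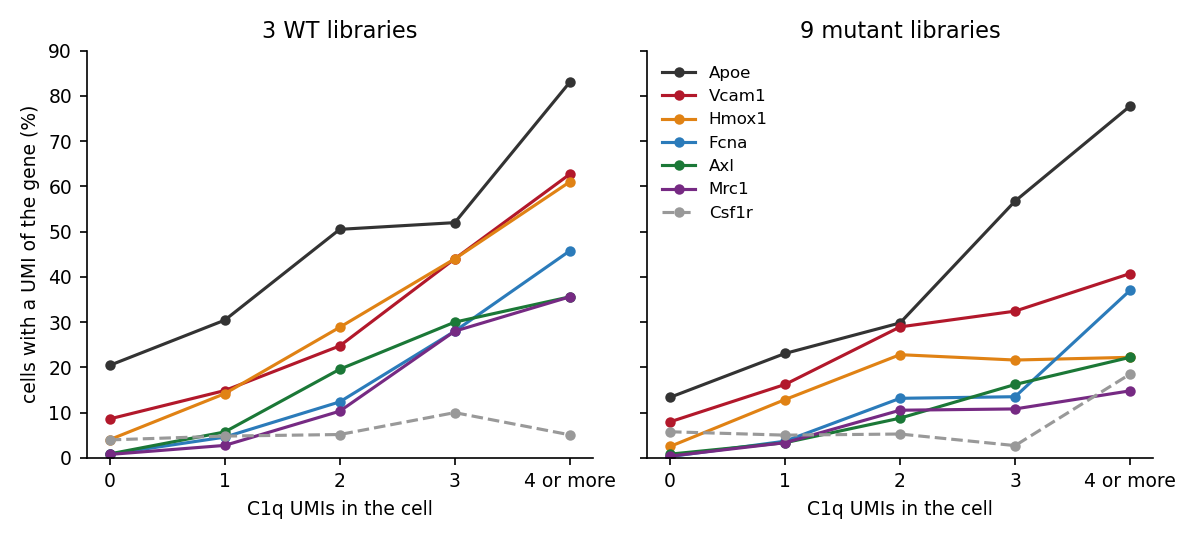
Percentage of cells with a UMI of each gene (y axis) by the number of C1q UMIs in the cell (x axis), in WT (left) and mutant libraries (right). Apoe, Vcam1, Hmox1, Fcna, Axl and Mrc1 are more frequent in WT cells with more C1q UMIs, while Csf1r (dashed) stays at or under 10% in WT cells and reaches 18.5% in the highest class of the mutants.

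C1q molecules were spread unevenly over ranges of cells. In WT cells, 21.7% of 567 globin-high cells had a C1q UMI at a median depth of 4207 UMIs, against 7.83% of 2720 cells of the late granulocyte range. In promonocyte-like cells it was 4.86%, although their median depth was higher (10998.5 UMIs). With every cell thinned to 2000 UMIs, the share over the 12 libraries was 6.93% ± 5.19 (SD, n = 12) in globin-high cells, 2.47% ± 1.97 in the late granulocyte range and 0.513% ± 0.804 in promonocyte-like cells. At their own depth these shares were 10.9%, 4.77% and 2.56%. Thinned, the globin-high share exceeded the late granulocyte share in 10 of 12 libraries (by 4.45 points on average) and the promonocyte-like share in 10 of 12 (by 6.41 points). The late granulocyte share exceeded the promonocyte-like share in 12 of 12 (by 1.96 points). These shares of the gate's own genes are a description, with no test.

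Over whole libraries, C1q was on average highest in WT, with a mean of 20.5 CPM ± 12.6 (SD, n = 3). C1qa, C1qb and C1qc together stood at 34.0, 18.5 and 9.01 CPM in WT at T1, T2 and T3. E2-KO had 6.37, 7.37 and 3.96 CPM, G12D had 9.33, 5.75 and 11.9, and G12D/E2-KO had 9.20, 1.24 and 2.53. E2-KO lay below all WT libraries, while G12D and G12D/E2-KO overlapped WT T3. C1q chose the gated cells, so its differences between genotypes are given as a description with no test. In the edgeR fit over 12 libraries with time as a factor, C1qa, C1qb and C1qc differed from WT by -2.24 (SE 0.66), -2.29 (SE 0.53) and -2.39 (SE 0.52) on the log2 scale in G12D/E2-KO. In E2-KO the 3 genes had -1.57 to -1.77, and in G12D -0.84 to -1.21. The gated cells are mostly WT, so leaving them out lowers WT C1q by construction. Without them, G12D/E2-KO had -1.91 for C1qb and -2.10 for C1qc.

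Within globin-high cells, the C1q value of every mutant library lay below the lowest WT value. The summed C1q level was 154, 117 and 56.0 CPM in WT, 29.9, 29.9 and 13.2 in E2-KO, 36.7, 47.7 and 41.1 in G12D, and 33.4, 0 and 2.75 in G12D/E2-KO. These are point values, and counting intervals overlapped. That of WT T3 was 40.9 to 75.0 CPM, and those of G12D T2 and G12D T3 were 31.7 to 68.9 and 21.9 to 70.3. In the fit within this range the 3 genes had log2 changes of -1.73 to -2.30 in E2-KO, -1.60 to -1.74 in G12D and -2.39 to -3.46 in G12D/E2-KO, given as a description like those above. Of the globin-high cells 14 in WT and 2 in the mutants were gated, and without the gated cells the changes were -1.08 to -1.78 in E2-KO, -0.93 to -1.24 in G12D and -2.03 to -3.10 in G12D/E2-KO. Globin-high cells themselves made up 5.11% to 9.99% of WT libraries and 3.06% to 22.2% of mutant libraries. In the late granulocyte range the changes were -2.27 to -2.41 in G12D/E2-KO, -1.23 to -1.58 in E2-KO and -0.71 to -1.02 in G12D. Without the gated cells they were -1.63 to -1.97, -0.79 to -1.03 and -0.18 to -0.64 in the same order.

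**Figure D5:**
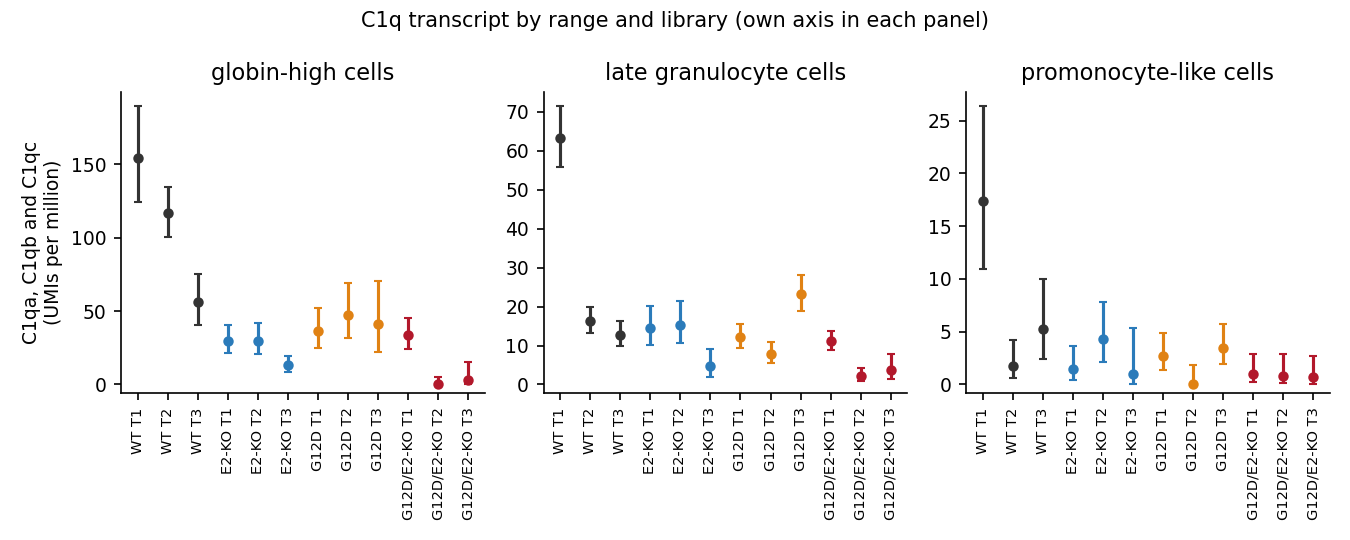
Summed C1qa, C1qb and C1qc level in CPM (y axis, own scale in each panel) in globin-high, late granulocyte and promonocyte-like cells of each library, with 95% exact Poisson intervals as bars. In globin-high cells the WT points lie at 56.0 to 154 and all mutant points at or under 47.7.

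Transcripts found with C1q did not all follow it in whole libraries. Of the 29 genes higher in gated than in matched cells, 5 were lower in G12D/E2-KO than in WT, where 1.99% of all 13143 genes were called lower: Fcna (-2.93, SE 0.54, adjusted p = 0.0161, edgeR), Fabp4 (-2.25), Mrc1 (-2.14), Igf1 (-1.55) and Hmox1 (-1.34). Ctsc was higher (1.13; 3.72% of all genes were called higher). The median of the 29 was -0.08 against 0.01 over all genes. The 29 genes were picked in gated cells, which are mostly WT and are still part of these whole libraries. This favours lower values in the mutants, and no fit without the gated cells is given for these genes. For Fabp4, 1 WT cell held 45 of the 56 UMIs of gated cells. Fcna stood at 3.68, 2.62 and 1.64 CPM in WT and at 0.763, 0.108 and 0.130 in G12D/E2-KO, with no overlap. In E2-KO 1 of the 29, Fabp4, was lower (-1.80, adjusted p = 0.0169; 0.289% of all genes), and in G12D, where 0.0228% of all genes were called lower, none was in edgeR (9 had an unadjusted p under 0.05 in either direction, of which 3 were higher, and DESeq2 called 1). Vcam1 stood at 18.1 to 21.7 CPM in WT and at 7.54 to 29.5 in the mutants, with log2 changes of -0.25 to 0.31 and adjusted p of 0.603 to 0.958. Genotype effects within the gated cells could not be fitted at the set minimum of 5 gated cells, because every library with that many was WT.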

How the data were processed

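The deposited tables hold whole-number UMI counts of 27998 genes per cell. The authors aligned each library to mm10 with Cell Ranger and, before deposit, removed cells with a high mitochondrial share and Scrublet doublets; no further doublet caller or cell filter was used here. Cell names in the tables carry no barcode, so shared cells were found by the cosine of log counts (genes ranked after the 300.0 most abundant, 8000.0 genes, cut 0.9). None was found in the other 65 library pairs (highest 0.853).

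The gene lists, ranges and comparisons were chosen with earlier results of these data known. The comparisons with matched cells, between ranges and over whole libraries were added after the gated cells had been seen. Ranges were cut at 10% of UMIs (late granulocyte, globin), 2% (early granulocyte) and 3 UMIs (B lymphoid), with globin taken first. UMI counts were summed per library and class and tested with edgeR 4.0.16 (R 4.3.3; TMM, filterByExpr, robust glmQLFit and glmQLFTest, Benjamini-Hochberg adjusted p over all genes tested, threshold 0.05), with the library or, for genotypes, the time point as a block. The labels give the time point, which pairs the libraries. DESeq2 1.42.0 was an alternative. Shares were compared by exact permutation tests in Python 3.11.15 with scipy 1.17.1 (tables with pandas 2.3.3, figures with matplotlib 3.10.9). Named genes are the 10 largest changes each way past the threshold and in the same direction in every library, members of the lists, and, named after their values were seen, Sepp1 and Actb. Tested on simulated data, the fits recovered 44% (promonocyte-like), 78% (matched) and 97% (whole libraries) of genes changed by 2 on the log2 scale. Of genes changed by 1 they recovered 5%, 43% and 57% in the same order. Depth ranged from 1438 UMIs in the shallowest cell to a library median of 6975.5.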

Additional observations from a re-analysis of the deposited data

How the results depend on the processing

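Of the share tests, E2 loss kept its direction under every alternative run. Its p lay under the threshold in 1 of them, the test with no replicate block (-0.282 points, exact permutation p = 0.0217). There, libraries are not paired by time, and this p was not adjusted over the share tests. The other alternatives were judged on adjusted p. Leaving out each library in turn gave E2 differences of -0.35 to -0.125, G12D differences of -0.292 to -0.0667 and interactions of 0.144 to 0.701 points. Against promonocyte-like cells, 530 genes were called, 216 by DESeq2 (198 higher, 18 lower) and 839 with libraries of 3 or more gated cells. With no replicate block 604 were called, and with no filter 576 (214 higher, 362 lower). Against matched cells 38 genes were called, 20 with no replicate block, 100 with no filter on low counts, 61 in libraries with 5 or more gated cells and 203 against all other cells of the library, of which 20, 35, 30 and 27 were among the 38. Leaving out a library gave 22 (WT T1) to 33 calls, and DESeq2 gave 27. Apol11b turned from -2.32 to 0.22 against all other cells (adjusted p = 0.892), and the cause was not tested.

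For C1q, which chose the cells, the values under each alternative are a description. In whole libraries, G12D/E2-KO had -2.24 for C1qb and for C1qc with no replicate block. C1qb had -2.29 in the tables as deposited and with no filter. DESeq2 gave -2.36 for C1qa in G12D/E2-KO, and -1.56 and -1.65 for C1qb and C1qc in E2-KO. For C1qa, C1qb and C1qc, E2-KO had -2.30, -1.73 and -2.12 in globin-high cells (without gated cells C1qa -1.68, C1qc -1.78) and -1.58, -1.41 and -1.23 in the late granulocyte range. G12D had -1.60, -1.74 and -1.70 in globin-high cells and, for C1qb, -1.02 in the late granulocyte range. C1qa in G12D/E2-KO had -2.39 in globin-high cells (without gated cells -2.03) and -2.27 in the late granulocyte range (without gated cells -1.63). Leaving out each library gave C1qa, C1qb and C1qc ranges of -2.26 to -1.27, -2.06 to -1.23 and -2.31 to -1.26 in E2-KO. The ranges were -1.64 to -0.384, -1.67 to -0.492 and -1.61 to -0.932 in G12D, and -3.60 to -1.73, -2.99 to -1.95 and -3.39 to -1.86 in G12D/E2-KO.

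Genotype effects within gated cells, and their difference from those in promonocyte-like cells, could not be fitted as planned. With 5 or more cells only WT libraries remained, and with 3 or more the fit with the time point as a term had no residual degrees of freedom. No fit without the time point is given. The promonocyte comparison could not be run with a gate of 3 UMIs, without cells of other lineages, or with a library left out, since 1 library remained. With 55 gated cells, a gene at 1 UMI in a library is at the limit of detection.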
